A study of Homo sapiens with 6 samples.

Results

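ATF4 is a transcription factor of the basic leucine zipper class and the main effector of the integrated stress response. In that response, kinases that sense amino acid shortage, unfolded protein, haem shortage or double-stranded RNA phosphorylate the translation factor eIF2alpha, general protein synthesis slows, and ATF4 messenger RNA is translated more efficiently. ATF4 then raises transcription of amino acid transporters, aminoacyl-tRNA synthetases, asparagine synthetase, the enzymes of serine synthesis and a set of stress effectors, and it binds many of these genes at composite C/EBP-ATF response elements. Because much of its control is translational, the level of its messenger RNA is not the level of the protein. The 10 genes described here are ATF4, its partner and target DDIT3 (also called CHOP), the stress effectors CHAC1, TRIB3, SESN2 and STC2, asparagine synthetase ASNS, and the serine synthesis enzymes PHGDH, PSAT1 and PSPH. They are 10 of 19775 genes measured by probe sets with a single gene symbol, and 17 such probe sets measure them.

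The genes were chosen from their measured ratios in these data, as ATF4-related genes whose values stood high at intermediate or high density. Their values are therefore given as a description, without a test. The cells were MCF10A, an established human breast epithelial line that does not form tumours, seeded at 50K, 100K, 200K, 400K, 600K or 800K per 35 mm dish and harvested 24 h later. The labels give 1 medium for all densities, which held 5% horse serum with hydrocortisone at 0.5 μg/ml, EGF at 20 ng/ml, insulin at 10 μg/ml, cholera toxin at 100 ng/ml and gentamicin at 100 μg/ml, and they name no amino acid starvation or stress agent. There is 1 array (Affymetrix HG-U133 Plus 2) per density and so no replicate, and an array is called here by its seeding number. Every deposited value is the ratio of a probe set to the same probe set on the 50K array. Ratios carry no level, so epithelial identity could not be checked by the presence of markers, the levels of different genes cannot be compared, and an error of the 50K array would enter all 5 other values of a probe set. In a whole-dish extract, a change in the share of cells that express a gene and a change in RNA per cell cannot be told apart.

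The RefSeq promoter windows of GRCh38.p14, which run from 250 bases before to 50 bases after a start site, were searched for the core of the composite element, TGATGNAA, on both strands. Of the 9 members with a window, 2 held it, CHAC1 and ASNS. Among all 35116 windows 3.62% held it, and by gene 4.46% of 27305. A match describes letters and does not show binding, and ATF4 elements farther from the start site or in introns lie outside these windows. The 250 bases before the start site of both genes are shown because CHAC1 and ASNS had the widest ranges over density among the members' single probe sets and followed the 2 different courses described next. The element is in capitals, and each sequence reads 5′ to 3′ on the strand of the gene.

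CHAC1, chr15:40953221-40953470, plus strand: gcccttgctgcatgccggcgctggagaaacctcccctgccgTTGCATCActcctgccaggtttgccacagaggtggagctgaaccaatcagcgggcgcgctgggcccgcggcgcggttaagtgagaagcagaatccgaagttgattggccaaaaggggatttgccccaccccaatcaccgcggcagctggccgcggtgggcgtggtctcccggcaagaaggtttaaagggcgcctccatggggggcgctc

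ASNS, chr7:97872409-97872658, minus strand: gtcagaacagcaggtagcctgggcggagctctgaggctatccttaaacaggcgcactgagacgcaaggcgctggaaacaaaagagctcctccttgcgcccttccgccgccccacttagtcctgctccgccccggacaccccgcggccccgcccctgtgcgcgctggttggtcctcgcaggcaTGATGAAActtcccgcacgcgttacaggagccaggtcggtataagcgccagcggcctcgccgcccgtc

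In CHAC1 the match lay on the strand opposite to the gene, 209 to 202 bases before the start site. In ASNS it lay on the strand of the gene, 68 to 61 bases before the start site, where the nutrient-sensing element of this gene is known. A second ASNS window, around another start site, held no match, nor did the windows of ATF4, DDIT3, TRIB3, SESN2, STC2, PHGDH and PSAT1.

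At low density the members stayed close to their 50K values. On the log2 scale the median ratio of the 10 genes was 0.07 at 100K and 0.18 at 200K, then 1.54 on the 400K array, 1.07 on the 600K array and 0.55 on the 800K array. The median over all genes stayed between 0.02 and 0.05. The step from 200K to 400K was upward in all 10 members, by 0.55 to 3.18 log2 units, and no other step was upward in more than 7 members. Of the 10 members, 8 were at least 2-fold above 50K at 400K, where 1.14% of all genes were. Between 200K and 400K, a comparison in which the 50K array cancels, 7 members were at least 2-fold higher, as were 0.248% of all genes, so that the members are 7 of the 49 genes past that fold among all those measured. PSPH was just below it with 1.98-fold. The members were chosen on such values, so the shares are given for scale and nothing is read from them.

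**Figure D1:**
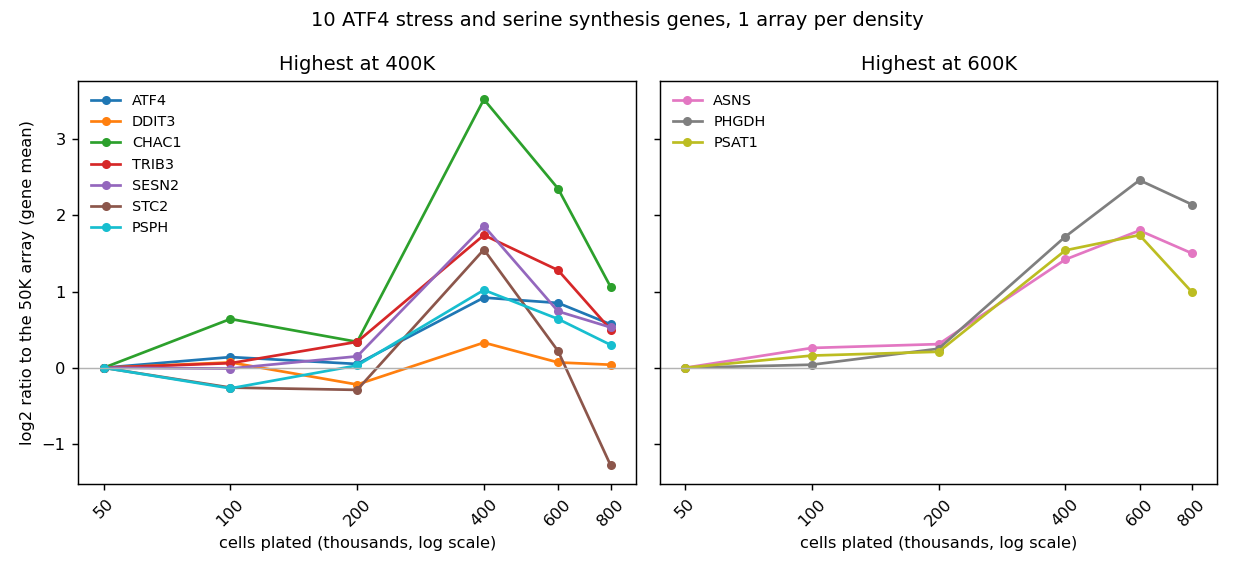
Log2 ratio to the 50K array (y axis) of the 10 genes, as the mean of each gene's probe sets, against the cells plated per dish (x axis, log scale), with 1 array per point and no error bars. All lines are low up to 200K and step up at 400K, after which 7 genes decline (left) and 3 are highest at 600K (right).

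After the step the members took different courses. 7 members had their highest value at 400K (ATF4, DDIT3, CHAC1, TRIB3, SESN2, STC2 and PSPH), as 8.82% of all genes did, while ASNS, PHGDH and PSAT1 were highest at 600K. At 800K, 4 members were at least 2-fold lower than at 400K, namely CHAC1, TRIB3, SESN2 and STC2, the stress effectors of the set, and so were 0.43% of all genes. The median of these 4 genes was 1.80 log2 units above 50K on the 400K array and 0.52 on the 800K array, while that of the 3 serine synthesis enzymes was 1.54 and 0.99. PSPH did not pass by its gene mean, which includes a probe set without the step at 400K. Its other 2 probe sets were 2.20-fold and 1.91-fold lower at 800K than at 400K, against 2.36-fold for TRIB3. The decline thus does not set the stress effectors apart from PSPH. At 800K only CHAC1, ASNS and PHGDH were still at least 2-fold above 50K, a fold that 2.25% of all genes passed at 800K, and PSAT1 was just below it with a ratio of 1.98. PHGDH and ASNS were the members whose gene mean was higher at 800K than at 400K, by 0.41 and 0.07 log2 units. Over the 6 arrays the Pearson correlation of a member with the mean of the other 9 was between 0.92 and 0.979 for ATF4, CHAC1, TRIB3, SESN2, PSAT1 and PSPH, 0.843 for ASNS, 0.766 for PHGDH, 0.727 for DDIT3 and 0.515 for STC2, which describes how alike the chosen profiles are.

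**Figure D2:**
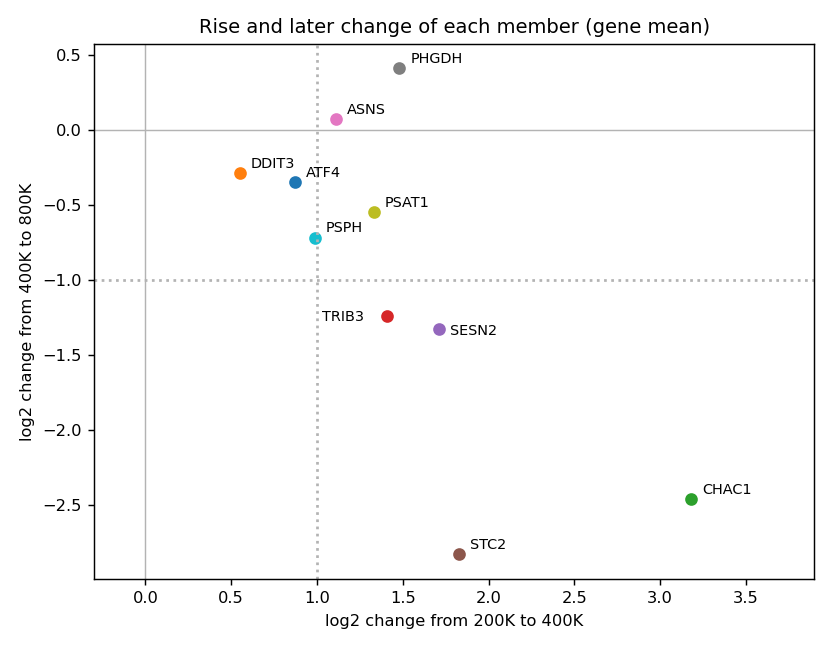
Change in log2 value from 200K to 400K (x axis) against the change from 400K to 800K (y axis) for each of the 10 genes (gene mean); dotted lines mark 2-fold. All points lie right of 0, the stress effectors CHAC1, STC2, SESN2 and TRIB3 lie below −1 on the y axis, and PHGDH and ASNS lie above 0.

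The transcription factors had the smallest ratios of the set at 400K. ATF4 had ratios to 50K of 1.10, 1.03, 1.89, 1.80 and 1.49 from 100K to 800K. Its 3 highest densities were all above its 3 lowest, and none of its values reached 2-fold. DDIT3, a bZIP factor that is known to pair with C/EBP and ATF proteins and to promote apoptosis under prolonged stress, had ratios of 1.05, 0.858, 1.26, 1.05 and 1.03 from 100K to 800K. It was highest at 400K like ATF4, but its whole range was 0.55 log2 units, the narrowest of the 10 genes. Both genes rest on 1 probe set each.

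CHAC1, a gamma-glutamyl cyclotransferase that degrades glutathione, had the tallest profile of the set. Its ratios to 50K were 1.56, 1.27, 11.5, 5.10 and 2.09 from 100K to 800K. The 400K array was 9.05-fold above the 200K array and 5.50-fold above the 800K array, and the 600K array lay between its neighbours, so that the gene was high on the 400K array and, less so, on the 600K array. CHAC1 also rests on a single probe set.

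TRIB3, a pseudokinase that binds AKT and ATF4 and dampens both, had ratios of 1.04, 1.26, 3.35, 2.43 and 1.41 over the same arrays. Its 2 probe sets gave 3.81 and 2.94 at 400K and the same order of the 4 highest densities. SESN2, a leucine sensor that restrains mTORC1, had ratios of 0.995, 1.11, 3.64, 1.67 and 1.45. Most of its decline came between 400K and 600K, a difference of −1.12 log2 units against −0.46 for TRIB3. The 2 SESN2 probe sets, 3.59 and 3.68 at 400K, were close to each other.

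STC2, a secreted glycoprotein hormone that is induced by endoplasmic reticulum stress, was the member that ended below its start. Its ratios from 100K to 800K were 0.833, 0.819, 2.92, 1.17 and 0.412. The 800K value was 7.09-fold below the 400K value and 2.43-fold below the 50K value. Both probe sets showed the peak and the final low value, with ratios of 3.38 and 2.53 at 400K and of 0.559 and 0.304 at 800K.

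Of the enzymes of amino acid synthesis, ASNS, PHGDH and PSAT1 were highest at 600K and PSPH at 400K. ASNS makes asparagine from aspartate and glutamine. The first of its 2 probe sets, which has the suffix _s_at, had ratios of 1.14, 1.25, 5.69, 9.66 and 6.70 from 100K to 800K, and its value at 600K was the highest ratio of the set after CHAC1 at 400K. The other probe set, without that suffix, had ratios between 1.19 and 1.27 on all 5 arrays and no step. The gene mean of ASNS, 2.68 at 400K and 3.49 at 600K, is thus an average of a probe set that moved and one that did not.

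PHGDH opens the serine branch by oxidising phosphoglycerate, a glycolysis intermediate. Its ratios were 1.03, 1.19, 3.30, 5.50 and 4.39 from 100K to 800K, from 1 probe set, and all 3 high densities were above all 3 low ones. PSAT1, the transaminase of the next step, had ratios of 1.12, 1.16, 2.90, 3.34 and 1.98, with its 2 probe sets at 2.86 and 2.93 at 400K. PSPH, the phosphatase that releases serine, had gene-mean ratios of 0.831, 1.02, 2.03, 1.56 and 1.23. Its 3 probe sets disagreed. At 400K those with the suffixes _s_at and _at stood at 3.65 and 3.69, and at 800K they stood at 1.66 and 1.93, whereas the one with the suffix _x_at lay between 0.584 and 0.668 on all 5 arrays. Within serine synthesis the first enzyme, PHGDH, was thus higher at 800K than at 400K, PSAT1 was lower, and the PSPH probe sets that stepped up at 400K were already lower at 600K, with ratios of 2.35 and 2.56.

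**Figure D3:**
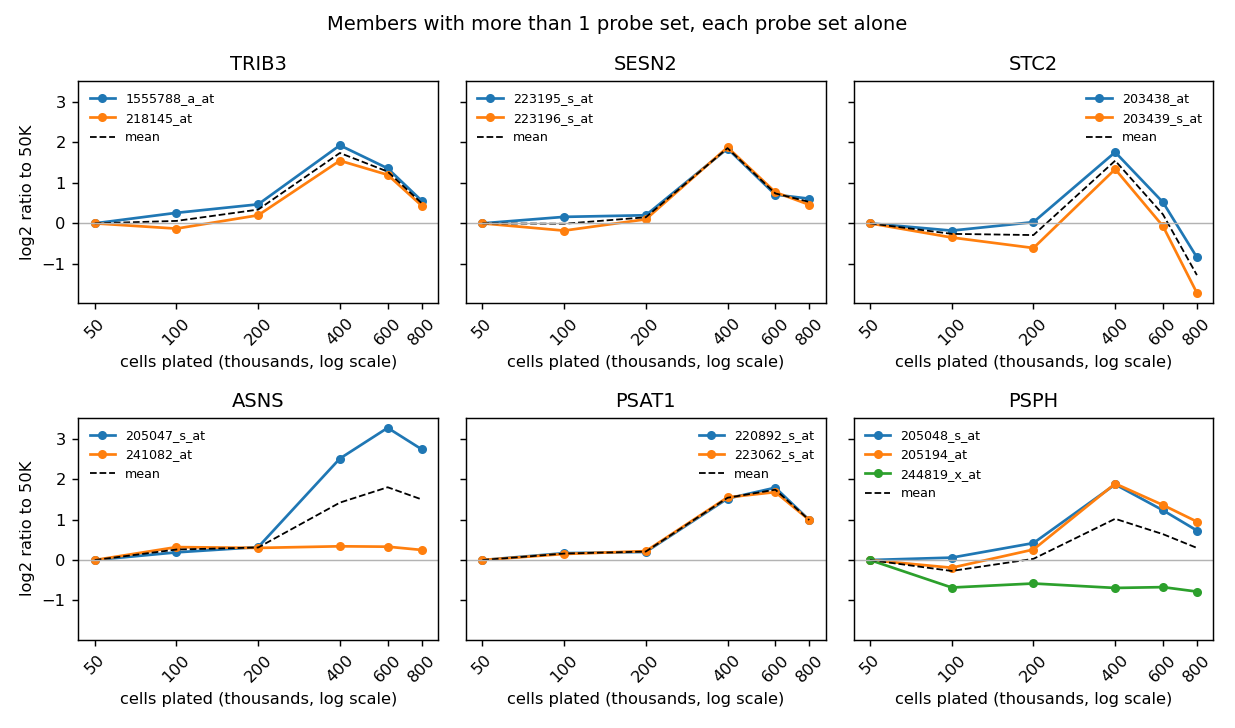
Log2 ratio to 50K (y axis) against cells plated per dish (x axis, log scale) for the 6 members with more than 1 probe set; coloured lines are single probe sets and the dashed line is their mean, 1 array per point. The probe sets of TRIB3, SESN2, STC2 and PSAT1 run together, while 1 probe set of ASNS and 1 of PSPH stay flat after 100K and pull the mean down.

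When probe sets with the suffixes _x_at and _s_at, which mark possible cross-hybridisation, were left out, SESN2 and PSAT1 had none left, and ASNS was left with the flat one. 5 of the remaining 8 members were then at least 2-fold above 50K at 400K. The count of 8 of 10 at 400K was unchanged with the median of the probe sets, with the widest-ranging probe set of each gene or with arrays centred on their medians.

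Among the technical measures, the hybridisation controls were between −0.05 and 0.09 log2 units of 50K on the other 5 arrays, with −0.05 at 400K, and the poly-A controls were between −0.37 and −0.20, with −0.36 at 400K. The 3′ to 5′ difference of ACTB, a sign of RNA length, was −0.02, 0.04, 0.17, 0.22 and 0.30 from 100K to 800K, relative to 50K, and that of GAPDH lay between −0.05 and 0.07. The ACTB difference increased up to 800K, and its part in the members' values was not tested. At least 2-fold above 50K were 226 genes at 400K, 343 at 600K and 444 at 800K. Of 6 fibroblast and 4 endothelial marker genes none was 2-fold changed at 400K, and of 3 leukocyte markers PTPRC and CD3E stood at −0.01 and 0.01 while CD14, which epithelial cells can also express, stood at 2.45. The 5 measured basal epithelial markers lay between −1.41 and 1.19 at 400K, with 2 of them at least 2-fold changed. The part of such shifts in the members' values was not tested.

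The genes whose profile was most like the mean of the 10 members were ranked by Pearson correlation over the 6 arrays among the 1250 other genes with a range of at least 1 log2 unit. They were LINC02806 (r = 0.995), CAMTA2 (0.975), ECM2 (0.971), GARS1 (0.964), SLC1A4 (0.960), PXK (0.956), AHR (0.950), SLC6A9 (0.945), EIF4EBP1 (0.942) and SLFN5 (0.935). All points share the 50K denominator and there are only 6 of them, so these values order genes and test nothing. LINC02806, a long non-coding RNA, stood 5.95-fold over 50K on the 400K array and differed by −1.76 log2 units at 800K from that value. The glycine transporter gene SLC6A9 had a ratio of 5.09 at 400K, and AHR, the aryl hydrocarbon receptor, one of 2.69. GARS1, SLC1A4, SLC6A9 and EIF4EBP1 also belong to the pathway lists described next.

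For other genes of the pathway, the test was limma's slope of the log2 ratio on each doubling of seeding density, fitted across all 19775 genes. A slope responds to a steady change and poorly to a peak at an intermediate density, so a gene with a course like that of CHAC1 need not pass. Among all genes measured, 8.93% rose and 12.4% fell at a limma adjusted p under 0.05, and the median slope was 0.0. Of 131 measured genes in 9 lists, 25 rose and 25 fell while 81 stayed short of the threshold. Leaving out probe sets with the suffixes _x_at and _s_at left 99 of these genes, of which 11 rose and 15 fell. Of all 17098 genes left in that setting 1157 rose and 1507 fell. Leaving out 50K, 100K or 600K gave 15, 15 and 14 that rose, and leaving out 600K or 800K gave 16 and 14 that fell. With the arrays centred 19 rose and 27 fell, and with the 3 highest against the 3 lowest densities 26 rose and 19 fell. When only genes with a log2 range of at least 0.5 were tested, 31 rose and 19 fell of 72 listed genes. Of all 5078 genes with that range, 1462 rose and 1947 fell. This range filter selects on the same values that the slope tests, so a call gained with it adds nothing to the main slope. At 400K 14 of the 131 were at least 2-fold above 50K, against 1.14% of all genes, and 1, SDF2L1, was at least 2-fold below it, against 0.895% of all genes. The ACTB difference given above was highest at 800K, as were ASS1, GLUL, PRODH, TXNIP and FOS among the listed genes named next, and SDF2L1, HSPA5, MANF, CALR and HSP90B1 were lowest there. Its part in these slopes was not tested.

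**Figure D4:**
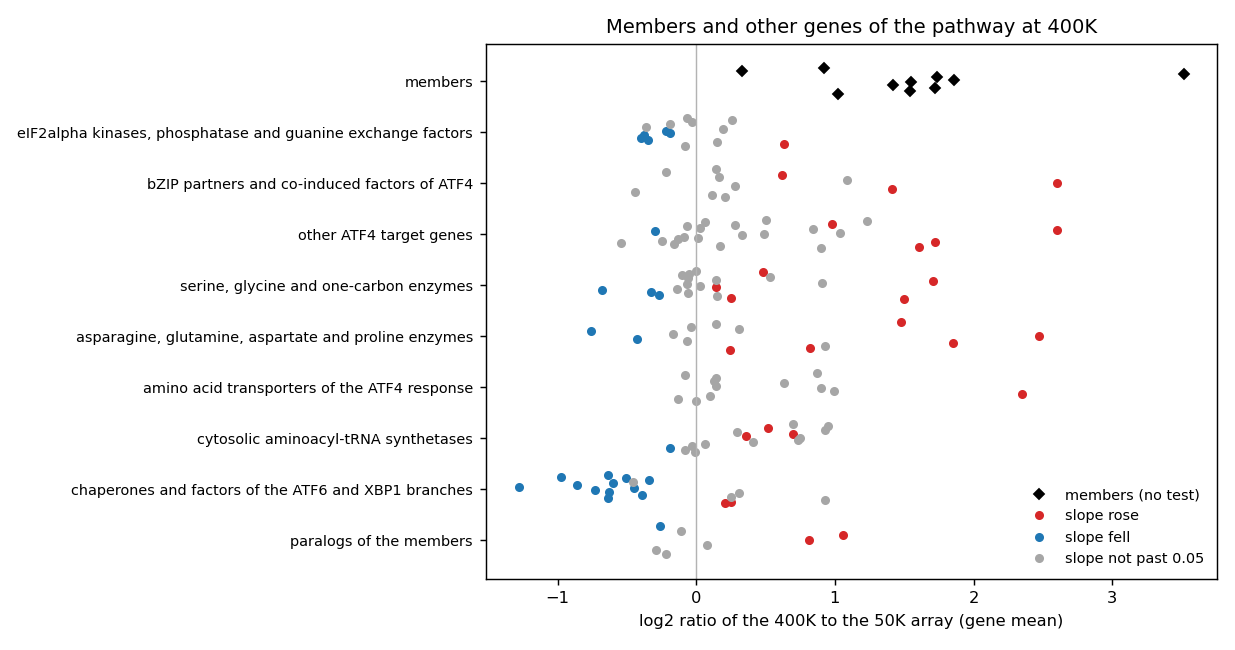
Log2 ratio of the 400K to the 50K array (x axis, gene mean) for the 10 members (black diamonds, not tested) and the genes of the 9 pathway lists (dots, 1 per gene; red, slope over all densities rose; blue, fell; grey, not past an adjusted p of 0.05 in limma). Most members lie above 1, single genes of several lists reach that range, and the chaperones of the ATF6 and XBP1 branches lie mostly below 0.

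Upstream of ATF4, the 14 genes of the eIF2alpha kinases, phosphatase and exchange factor included 5 that fell, 1 that rose and 8 that did not pass (median slope −0.07), and 2 fell when 100K, 600K or 800K was left out. IMPACT, an inhibitor of the kinase GCN2, rose with a slope of 0.19 ± 0.03 (SE; limma adjusted p = 0.00645). The subunits EIF2B2 (−0.18 ± 0.03, limma adjusted p = 0.0119), EIF2B3 (−0.20 ± 0.04, 0.0191) and EIF2B1 (−0.12 ± 0.03, 0.0265) of the exchange factor fell, and leaving out 100K, 600K or 800K each ended the calls of EIF2B3 and EIF2B1 (adjusted p up to 0.103). The others that fell, EIF2S1 and EIF2B4, were picked out after their values were seen and had log2 ratios of −0.39 and −0.35 at 800K. The call of EIF2S1 was lost without 100K, 400K, 600K or 800K (limma adjusted p up to 0.109) and without the suffixed probe sets. None of these 14 genes was 2-fold changed at 400K.

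Among 11 bZIP partners and co-induced factors, 3 rose and 8 did not pass (median slope 0.05). Without the suffixed probe sets CEBPB kept its call and NUPR1 had no probe set left. FOS kept its 1 probe set and its slope of 0.52 there, at a limma adjusted p of 0.0512. NUPR1, a small stress-induced chromatin protein, rose with a slope of 0.77 ± 0.11 (limma adjusted p = 0.00791) and had log2 ratios of 0.44, 0.82, 2.60, 2.98 and 2.43 from 100K to 800K, highest at 600K like PHGDH. CEBPB, which dimerises with ATF4, rose by 0.17 ± 0.02 per doubling (limma adjusted p = 0.00722). The immediate early gene FOS also rose (0.52 ± 0.13, limma adjusted p = 0.0376), but leaving out 50K, 400K, 600K or 800K each ended the call (adjusted p up to 0.213), as did centring the arrays (0.0536) and setting the 3 highest against the 3 lowest densities (0.0819). JDP2 did not pass (slope 0.12, limma adjusted p = 0.5). Its log2 ratio was 1.09 at 400K and 0.10 at 800K, and its 2 probe sets stood at 0.16 and 2.02 at 400K.

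Of 23 further ATF4 target genes, 4 rose, 1 fell and 18 did not pass (median slope 0.03), and 2 rose without 50K, 100K or 600K. With the 3 highest against the 3 lowest densities 6 rose, and with the range filter 8 of 13 rose. NUPR1 is counted here too. TXNIP, an arrestin family protein that binds thioredoxin, rose by 0.58 ± 0.08 per doubling (limma adjusted p = 0.00588) and had a log2 ratio of 1.61 at 400K and 1.99 at 800K. PCK2, the mitochondrial phosphoenolpyruvate carboxykinase, rose by 0.53 ± 0.13 (limma adjusted p = 0.0392, held with 200K left out and lost with each other array left out, at up to 0.111), with log2 ratios of 0.17, −0.06, 1.72, 2.08 and 1.49 from 100K to 800K. GDF15 rose by 0.23 ± 0.05 (limma adjusted p = 0.0177), but its 3 probe sets ranged from −0.01 to 2.92 log2 units at 400K, and the call was lost without 50K, 100K or 600K and without the suffixed probe sets (slope −0.01). PCK2 kept its 1 probe set and its slope of 0.53 in that last setting, where fewer genes were fitted and its limma adjusted p was 0.0533. It did not pass with the arrays centred (0.0585). NUPR1 and TXNIP had no probe set left without the suffixed ones. Several further genes were picked out after their values were seen. ERO1A, an oxidase of the endoplasmic reticulum, was the gene that fell (log2 ratio −0.30 at 400K), and it lost its call without 50K (limma adjusted p = 0.0507). DDIT4, an inhibitor of mTORC1, CTH, which makes cysteine, and the receptor gene VLDLR did not pass and had single peaks at 400K, with log2 ratios of 1.23, 1.04 and 0.50 there and of 0.70, −0.14 and 0.02 at 800K. DDIT4 passed without 400K (limma adjusted p = 0.0265) and without 800K (0.0342). With the range filter, which selects on the tested values, it passed (limma adjusted p = 0.0141) at an unchanged slope of 0.23.

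Of 20 enzymes and carriers of serine, glycine and one-carbon metabolism, 5 rose, 3 fell and 12 did not pass (median slope −0.01), while 1 to 3 rose with 50K, 100K, 400K, 600K or 800K left out and 1 fell with 800K left out. With cells plated in place of their log2, 3 rose and 5 fell, and without the suffixed probe sets 3 rose and 1 fell of 16. ALDH1L2, the mitochondrial formyltetrahydrofolate dehydrogenase, rose by 0.55 ± 0.10 (limma adjusted p = 0.0147, 0.0521 without 100K), with log2 ratios of −0.09, 0.39, 1.71, 2.00 and 1.56 from 100K to 800K. CBS, which joins serine to homocysteine, rose by 0.52 ± 0.10 (limma adjusted p = 0.0185, 0.0575 without 50K and 0.0646 without 100K), with ratios to 50K of 2.82 on the 400K and 4.37 on the 600K array. Its 3 probe sets ranged from 0.31 to 2.44 log2 units at 400K. The mitochondrial folate carrier gene SLC25A32 fell (−0.25 ± 0.03, limma adjusted p = 0.0027), as did the thymidylate synthase gene TYMS (−0.18 ± 0.04, limma adjusted p = 0.0226, lost without 100K, 600K or 800K and without the suffixed probe sets). No probe set of SLC25A32 was left in that last setting. The glycine cleavage gene GLDC did not pass, with a log2 ratio of 0.91 at 400K. MTHFD2 and SHMT2, named after their values were seen because they are well-known mitochondrial targets of ATF4, stood at 0.53 and 0.48 log2 units at 400K. SHMT2 rose (limma adjusted p = 0.0386), but its call held with 200K left out and was lost with each other array left out (up to 0.111), with the arrays centred (0.0592) and without the suffixed probe sets (0.0974). MTHFD2 did not pass. The remaining calls, of DLD and AHCY, which rose, and SFXN1, which fell, were also picked out after their values were seen and were small (0.14, 0.25 and −0.33 at 400K). AHCY lost its call with any 1 array left out (limma adjusted p up to 0.295), DLD without 50K, 600K or 800K (up to 0.0919), and SFXN1 without 50K (0.0507) or 800K (0.0543).

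Of 13 enzymes of asparagine, glutamine, aspartate and proline metabolism, 5 rose, 2 fell and 6 did not pass (median slope 0.06). Of the 9 with a probe set left without the suffixed ones, 2 rose and 3 fell. With cells plated in place of their log2 4 fell, with the 3 highest against the 3 lowest densities 3 rose, and without 100K, 600K or 800K 1 fell. ASS1, argininosuccinate synthase, rose by 0.81 ± 0.03 (limma adjusted p = 0.00012), with log2 ratios of 0.81, 1.51, 2.47, 2.99 and 3.11 from 100K to 800K, higher at each successive density. Glutamine synthetase GLUL (0.67 ± 0.07, limma adjusted p = 0.0033) and the proline oxidase PRODH (0.58 ± 0.07, limma adjusted p = 0.00437) rose as well and were highest at 800K, though PRODH did not pass with the 3 highest against the 3 lowest densities (0.0716). ASS1 and PRODH had no probe set left without the suffixed ones. PYCR3, a reductase of proline synthesis, fell by 0.40 ± 0.08 per doubling (limma adjusted p = 0.022, lost without 100K, 600K or 800K). Picked out after their values were seen, GLUD1 and OAT also rose (0.82 and 0.24 at 400K) and ASL fell (−0.43). OAT lost its call without 50K (limma adjusted p = 0.102) or 800K (0.0882), and with the 3 highest against the 3 lowest densities OAT (0.0774) and ASL (0.0683) did not pass.

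Among 12 amino acid transporters of the response 1 rose, SLC6A9 (0.65 ± 0.14, limma adjusted p = 0.0262, lost without 50K, 100K or 600K), and 11 did not pass (median slope 0.01). SLC6A9 had no probe set left without the suffixed ones. In all, 2 transporters rose without 400K, without 800K, with the range filter and with the 3 highest against the 3 lowest densities. SLC1A4 and SLC1A5 had log2 ratios of 0.99 and 0.90 at 400K and of 0.35 and 0.26 at 800K, and the 5 probe sets of SLC1A4 ranged from 0.02 to 1.82 at 400K. SLC1A4 passed with the 3 highest against the 3 lowest densities (limma adjusted p = 0.0429) and, at an unchanged slope of 0.26, with the range filter (0.0422). Without the suffixed probe sets its slope was 0.0 (limma adjusted p = 0.896). SLC1A5 passed without 800K (limma adjusted p = 0.0392). SLC7A11, the cystine transporter, named after its values were seen, was, like STC2, highest at 400K and below its 50K value at 800K (log2 ratios of −0.38, −0.86, 0.87, 0.19 and −1.50 from 100K to 800K). Of 15 aminoacyl-tRNA synthetases of the cytosol, 3 rose, 1 fell and 11 did not pass (median slope 0.10), and each of these 4 lost its call without at least 1 array. With the 3 highest against the 3 lowest densities 6 rose, with the range filter 6 of 7 rose, and with the arrays centred 1 rose and 2 fell. EPRS1 (0.22 ± 0.04, limma adjusted p = 0.0127, lost without 50K), WARS1 (0.24 ± 0.06, limma adjusted p = 0.0398, lost without any array but 200K) and IARS1 (0.10 ± 0.03, limma adjusted p = 0.042, lost without any array but 800K) rose. HARS1 fell (−0.06 ± 0.02, limma adjusted p = 0.0457, lost without any 1 array). When the suffixed probe sets were left out, EPRS1, IARS1 and GARS1 had none left. GARS1, SARS1 and CARS1 did not pass, with log2 ratios of 0.95, 0.93 and 0.75 at 400K and 0.49, 0.42 and 0.33 at 800K. GARS1 and SARS1 passed with the 3 highest against the 3 lowest densities (limma adjusted p = 0.0351 and 0.0353). With the range filter, which selects on the tested values, both passed (limma adjusted p = 0.0282 and 0.0288) at unchanged slopes of 0.23 and 0.21.

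The chaperones and factors of the ATF6 and XBP1 branches of the unfolded protein response went the other way. Of 18 measured, 12 fell, 2 rose and 4 did not pass (median slope −0.18). With 1 array left out 9 to 12 fell, and of the 14 with a probe set left without the suffixed ones 6 fell. The genes that rose were the sensors ATF6 and ERN1, picked out after their values were seen, with log2 ratios of 0.25 and 0.21 at 400K, and neither call held without 100K, 600K or 800K. SDF2L1, a cofactor of the endoplasmic reticulum lumen, fell with a slope of −0.55 ± 0.06 (limma adjusted p = 0.00329) and had a log2 ratio of −1.28 at 400K, where the stress effectors of the ATF4 set peaked. HSPA5 (−0.27 ± 0.03, limma adjusted p = 0.00314), MANF (−0.25 ± 0.02, 0.00156) and CALR (−0.27 ± 0.05, 0.0188, lost without 100K, 600K or 800K and without the suffixed probe sets) fell too. HSP90B1 fell (−0.25 ± 0.05, limma adjusted p = 0.022, lost without 50K, 600K or 800K) and had a log2 ratio of −0.98 at 400K. Neither SDF2L1 nor HSP90B1 had a probe set left without the suffixed ones. HERPUD1, a gene that ATF4 is also known to activate, did not pass and had log2 ratios of 0.93 at 400K and 0.40 at 800K. With the range filter, which selects on the tested values, it passed (limma adjusted p = 0.0478) at an unchanged slope of 0.18. XBP1, named after its values were seen, stood at 0.25 at 400K.

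Of the 7 paralogs of the members, 2 rose, 1 fell and 4 did not pass (median slope 0.04). Their highest arrays were 50K, 100K, 600K or 800K, and among all genes the share highest at 400K was 8.82%. TRIB2 rose by 0.45 ± 0.03 per doubling (limma adjusted p = 0.00128) with log2 ratios of 1.06 at 400K and 1.73 at 800K, and TRIB1 did not pass (−0.11 at 400K). SESN1 rose by 0.29 ± 0.03 (limma adjusted p = 0.00379), from 0.56 at 100K to 1.28 at 800K, whereas SESN2 was at −0.01 and 0.53, but it did not pass with the 3 highest against the 3 lowest densities (0.0769). SESN3 did not pass. CHAC2 fell by 0.22 ± 0.06 (limma adjusted p = 0.0416, which held with 400K left out and was lost with each other array left out, at up to 0.185, and with the 3 highest against the 3 lowest densities, at 0.246) and stood at −0.26 at 400K, where CHAC1 had 3.52. STC1 did not pass and had log2 ratios of −0.29 at 400K and 0.55 at 800K, against 1.55 and −1.28 for STC2. ATF5, with 4 probe sets, did not pass and stood at −0.22 at 400K, and it passed with the arrays centred (limma adjusted p = 0.0426) and without 50K (0.0446). SESN1, STC1 and ATF5 had no probe set left without the suffixed ones.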

How the data were processed

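Per the labels, the input was 200 ng of total RNA for each of the 6 arrays. The deposited values are linear ratios to the 50K array: all 54675 values of that column equal 1 within 1e-06. RMA, with no version, is named in the submitters' processing notes, and how the values were divided by 50K was not stated there. Whether an array holds 1 dish or several is not given either. Since only ratios were deposited, signal over background is unknown and precision is limited by the 6 arrays.

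Log2 of each ratio was taken without a filter. Of the probe sets, 41091 had 1 gene symbol and were not controls, and a gene was the mean of all of them; 1801 with several symbols and 11777 not listed in the platform annotation (an older one) were not used. Gene identifiers of 41037 matched the RefSeq table, and 0 symbols changed. Of 142 listed genes, 11 were not analysed here.

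Slopes on log2 of the cells plated came from limma 3.58.1 (R 4.3.3), across all genes. The tests were two-sided on 4 residual degrees of freedom, adjusted by Benjamini-Hochberg over all genes, at a threshold of 0.05. Errors after ± are standard errors; without replicates they mix variation between dishes, noise and departure from a line. The procedure was run on simulated data with straight-line changes and independent noise for each gene. That setting holds no error shared by an array and no peaked course, so it does not measure the error rate of the calls here. Members and lists were chosen with earlier results of these data known. Named genes were all members, the 10 most alike in profile, in each list up to 4 past the threshold with the largest slopes and up to 3 with the largest log2 ratios at 400K, and all paralogs; others are marked as chosen after their values were seen. Alternatives were other probe set rules, array centring, other scales of density, a range filter and leaving out each array.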

Additional observations from a re-analysis of the deposited data

How the results depend on the processing

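No paired analysis was possible because each density has 1 array and no replicate numbers. Over all genes 1765 rose and 2455 fell. Without probe sets ending in _x_at or _s_at 17098 genes were left, of which 1157 rose and 1507 fell. With the 3 highest against the 3 lowest densities 908 rose and 1351 fell. With 1 array left out between 1026 and 1627 rose and between 1362 and 2282 fell, with the lowest counts without 800K and, next, without 600K. Of the 99 listed genes left without the suffixed probe sets 11 rose and 15 fell. Of all 131 listed genes 14 to 24 rose and 14 to 25 fell with 1 array left out. The slope of GDF15 was −0.01 without the suffixed probe sets. The suffix rule also gave 5 members at least 2-fold above 50K at 400K and a median log2 ratio of 1.73 there. The median of probe sets gave a member median of 1.26 at 600K, and the widest probe set gave medians of 1.80, 1.36 and 0.76 on the 400K, 600K and 800K arrays. For these summaries of members, listed genes and all genes, the remaining counts stayed within 1.5 times of their first value. With the range filter these counts came from fewer genes, 5078 in all and 72 of the listed ones. The members' 2-fold counts compare single arrays and have no value without them. The causes of these differences were not tested beyond the smaller number of probe sets, arrays or genes that each setting leaves.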
